A study of Mus musculus with 21 samples.

Results

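Genes of blood clotting and clot removal were read in macrophages sorted from mouse kidneys, and they were taken as the 9 symbols *F3*, *F7*, *F10*, *F5*, *F13a1*, *Thbd*, *Plau*, *Plaur* and *Thbs1* among the 34236 symbols of the count table. All 9 were found, and lines that shared a symbol were summed. The genes were picked with their levels in these libraries in view, so their own levels and differences are given as a description. How many of them pass the threshold used for all genes is printed only as a count from which nothing is read. Only the 50 other genes of the clotting and fibrinolytic system are tested below. The lists of these 50 were also drawn up with earlier results of these data known. Levels are in CPM, the count of a gene scaled to the total of its library.

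RNA was sequenced in 21 libraries from 3 populations of F4/80+CD64+ cells, each taken from kidneys after renal artery stenosis (RAS) or a Sham operation. All mice were male C57BL/6J, wild type, and listed at an age of 24 weeks. RAS was made by a cuff around the right renal artery, which narrows the vessel and leaves the kidney short of blood, and in Sham mice the artery was freed but left without a cuff. The populations were CD11chiMϕ, which are high in CD11b and CD11c, CD11cloMϕ, which are high in CD11b and low or negative for CD11c, and kidney-resident macrophages (KRM), which are intermediate in both. CD11chiMϕ gave 3 Sham and 4 RAS libraries, CD11cloMϕ 3 Sham and 4 RAS, and KRM 4 Sham and 3 RAS. The study's methods count fewer RAS libraries of both CD11b-high populations than the labels give, and all labelled libraries were used. Live CD45+ cells were sorted after a lineage gate removed lymphocytes, red cells and granulocytes, and how many mice went into a library is not given in the sources used here, so p-values measure the spread between these libraries. Differences are log2 fold changes with their standard error (SE) from edgeR's quasi-likelihood fit with TMM scaling. A gene is called where its Benjamini-Hochberg adjusted p over all genes tested is under 0.05. The libraries enter these fits as unpaired, and fits with the replicate number as a block are given as an alternative.

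Clotting starts when tissue factor (*F3*), a membrane protein that most cells in contact with blood lack, binds factor VII (*F7*) and the pair activates factor X (*F10*). Factor X with its cofactor factor V (*F5*) makes thrombin, which turns fibrinogen into fibrin, and factor XIII, whose A chain is *F13a1*, crosslinks the fibrin. Thrombomodulin (*Thbd*) diverts thrombin to the activation of the anticoagulant protein C. Urokinase (*Plau*) bound to its receptor (*Plaur*) makes plasmin, which dissolves fibrin, and thrombospondin 1 (*Thbs1*) is an adhesive protein of platelets and matrix that also activates TGF-β. Most clotting factors in plasma come from the liver, but monocytes and macrophages are known sources of factor XIII A and, when activated, of tissue factor.

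*F7* and *F10* are neighbours on the plus strand of chromosome 8. In GENCODE vM21 on GRCm38, *F7* lies from 13026034 to 13035809 and *F10* from 13037308 to 13056676, with 1498 bases between them. *F3* (chromosome 3, 121723537 to 121735048), *F5* (chromosome 1, 164151838 to 164220277), *Plau* (chromosome 14, 20836660 to 20843385), *Plaur* (chromosome 7, 24462484 to 24475968) and *Thbs1* (chromosome 2, 118111876 to 118127133) are also on the plus strand. *F13a1* (chromosome 13, 36867178 to 37050244) and the single-exon gene *Thbd* (chromosome 2, 148404466 to 148408188) are on the minus strand. The antisense genes Gm49144 and Gm30489 overlap *F13a1*, Gm16548 and the pseudogene Gm16588 overlap *F5*, and Gm29233 overlaps *Thbs1*. The kit does not mark strand, so reads of such pairs cannot be told apart where their exons overlap.

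The 250 bases before the start of *F7* (chr8:13025784-13026033) and *F10* (chr8:13037058-13037307) are shown because these neighbours were both near 0 in KRM, and those of *F3* (chr3:121723287-121723536) and *Plaur* (chr7:24462233-24462482) because both were higher in the same KRM libraries from RAS kidneys. They are from RefSeq on GRCm38.p6, plus strand, and capitals mark the motifs found.
F7: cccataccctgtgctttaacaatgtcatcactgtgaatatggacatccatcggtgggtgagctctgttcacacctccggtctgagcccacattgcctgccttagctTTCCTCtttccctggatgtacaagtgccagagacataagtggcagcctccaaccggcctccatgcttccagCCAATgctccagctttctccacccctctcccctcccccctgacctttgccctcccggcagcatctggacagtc
F10: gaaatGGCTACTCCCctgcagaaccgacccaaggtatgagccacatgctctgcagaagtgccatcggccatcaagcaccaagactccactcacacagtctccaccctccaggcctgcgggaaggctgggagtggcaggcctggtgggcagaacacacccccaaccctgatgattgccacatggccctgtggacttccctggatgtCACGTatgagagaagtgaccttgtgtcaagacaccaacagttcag
F3: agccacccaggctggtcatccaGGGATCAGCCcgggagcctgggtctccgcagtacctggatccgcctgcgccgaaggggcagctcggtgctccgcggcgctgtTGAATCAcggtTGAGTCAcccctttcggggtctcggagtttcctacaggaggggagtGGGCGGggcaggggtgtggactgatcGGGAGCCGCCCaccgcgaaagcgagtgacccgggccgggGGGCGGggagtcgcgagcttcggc
Plaur: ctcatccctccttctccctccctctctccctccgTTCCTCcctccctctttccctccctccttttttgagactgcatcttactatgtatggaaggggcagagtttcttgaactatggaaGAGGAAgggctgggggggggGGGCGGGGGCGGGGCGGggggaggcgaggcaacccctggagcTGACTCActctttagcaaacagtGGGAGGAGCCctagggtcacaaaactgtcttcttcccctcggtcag

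A set of 7 short motifs was searched on both strands, and each share is of 32851 RefSeq promoter windows of the same length. The *F3* window held the AP-1 motif TGANTCA in 2 places, 146 and 135 bases before the start, and the *Plaur* window held it once, 69 bases before the start, while 6.75% of all windows hold it. The NF-kB motif, GGGA and CC with any 4 bases between them, in 17.6% of windows, stood in *F3* at 228 and 63, in *Plaur* at 46 and in *F10* at 245 bases before the start. The Sp1 motif GGGCGG, in 32.7% of windows, stood 3 times in *F3*, where the match at 58 overlaps an NF-kB match, and 3 times in *Plaur*, where the matches at 105 and 100 overlap. The PU.1 motif GAGGAA, in 23.3%, stood in *Plaur* at 216 and 131 and in *F7* at 144. *F7* also held CCAAT, which 33.8% of windows hold, at 73, and *F10* held the hypoxia motif ACGTG, which 16.6% hold, at 45. The motif TATAAA, in 12.4% of windows, was in none of these 4 windows. The windows of *F7* and *F10* shared none of the motifs searched. *F3* had 70.0% GC and 24 CpG pairs, against 4 CpG pairs each in *F7* and *F10*. These matches describe letters only and are not shown to be sites.

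Libraries held between 6891142 and 18592381 counts and 14607 to 17703 genes, and every pair of replicates differed by more than counting noise. The genes of the sorted surface proteins followed the gates in part. *Itgax*, which codes CD11c, was at 110 to 403 CPM in CD11chiMϕ, 12.1 to 28.6 CPM in CD11cloMϕ and 331 to 430 CPM in KRM from Sham kidneys. Within CD11chiMϕ from RAS kidneys the libraries differed. *Adgre1*, which codes F4/80, was at 858 CPM in replicate 1 and at 101 to 180 CPM in replicates 2 to 4, and *Fcgr1*, which codes CD64, was at 131 and at 10.5 to 41.6 CPM, while the summed level of 5 dendritic cell markers was 1037 CPM in replicate 1 and 1559 to 3935 CPM in the others. The 9 markers of tubule epithelium summed to over 1000 CPM in 5 libraries, at 6789 CPM in CD11chiMϕ Sham replicate 3, 2369 CPM in CD11cloMϕ Sham replicate 3, 1239 CPM in KRM Sham replicate 3, and 5369 and 4009 CPM in KRM RAS replicates 2 and 3. The other 16 libraries held 12.8 to 711 CPM of these markers. Leaving out the 5 libraries was a choice made after seeing the data. Values without them are given where the printed log2 fold change, as a number on the log2 scale, moved by over 1.5 times. Smaller moves on that scale, such as 2.39 to 3.31 for *Plau* in KRM against CD11cloMϕ from Sham kidneys, can be larger as folds.

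In Sham kidneys KRM stood apart from both CD11b-high populations. *F7*, *F10*, *F5*, *F13a1*, *Thbd*, *Plaur* and *Thbs1* were lower in all 4 KRM libraries than in every library of either other population, *Plau* was higher in all 4, and *F3* overlapped. For the 6 of the lower genes with counts in KRM, log2 fold changes ran from -2.20 for *Thbd* against CD11chiMϕ to -8.51 for *F5* against CD11cloMϕ, and *F7*, with no count in KRM, is given as a bound. The plot of levels by library shows the 9 genes in each group.

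**Figure D1:**
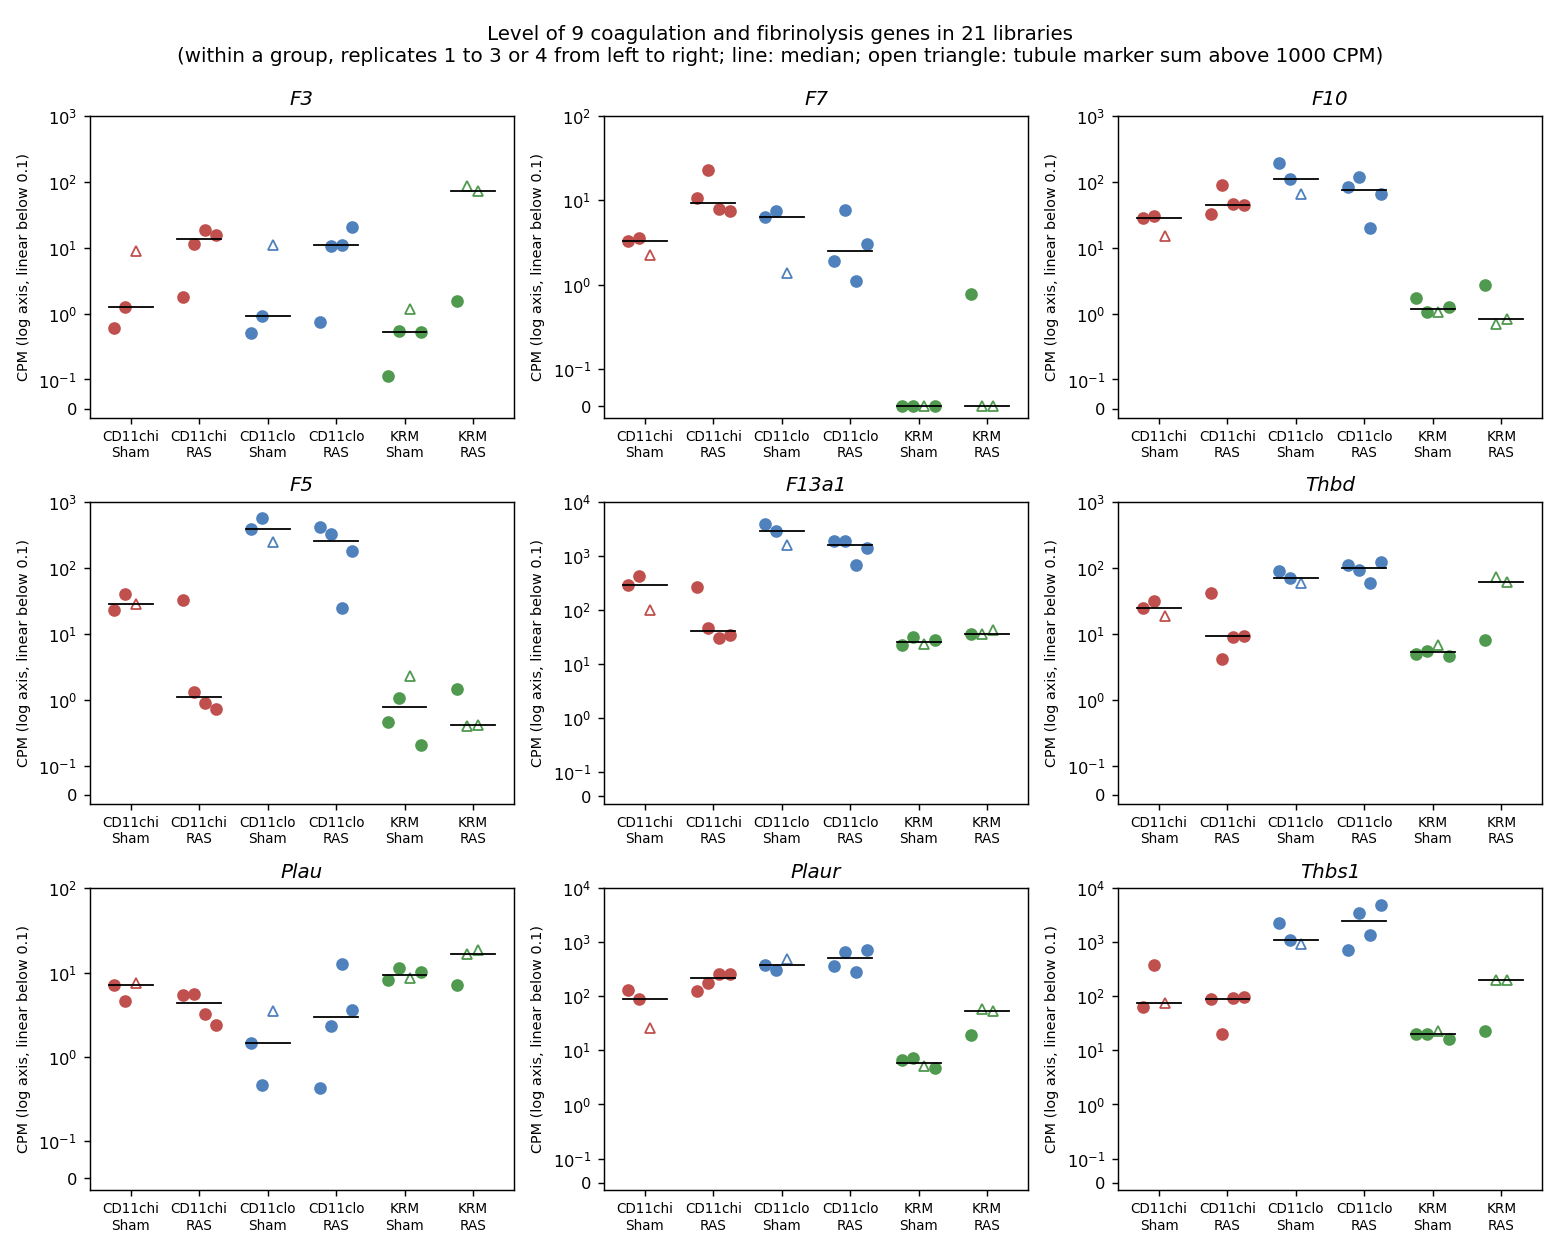
Level of each of the 9 genes in CPM (log axis, linear below 0.1) in the 21 libraries, by population and operation. Points are libraries, lines are group medians, and open triangles are the 5 libraries whose tubule markers summed to over 1000 CPM. Among the Sham groups KRM have the lowest median for 8 of the 9 genes, with *F7* at 0 in all 4 libraries, while *Plau* is higher in these 4 libraries than in all Sham libraries of CD11chiMϕ and CD11cloMϕ.

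The order of the genes within a population was compared on CPM per kilobase of merged exon. In CD11cloMϕ from Sham kidneys *F13a1* led with 419 ± 175 CPM per kilobase (SD, n = 3), followed by *Thbs1* with 235 ± 118, *Plaur* with 149 ± 33.5, *F5* with 54.8 ± 22.3 and *F10* with 45.1 ± 23.2 CPM per kilobase. *Thbd* was at 19.8 ± 3.94 CPM per kilobase, and *F7*, *F3* and *Plau* were under 3 on this scale, with *Plau* last at 0.766 ± 0.661. In CD11chiMϕ *F13a1*, *Plaur* and *Thbs1* again had the highest means, at 40.7 ± 24.5, 31.7 ± 20.4 and 28.8 ± 29.8 CPM per kilobase (SD, n = 3), which do not differ beyond their spread. In KRM *Plau* was first with 4.04 ± 0.614 CPM per kilobase (SD, n = 4), next to *F13a1* with 3.98 ± 0.591, *Thbs1* with 3.26 ± 0.461 and *Plaur* with 2.26 ± 0.455, and *F10*, *F3*, *F5* and *F7* were all under 0.5. Per length the receptor *Plaur* was thus below its own ligand in all 4 KRM libraries and far above it in CD11cloMϕ.

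*F7*, the protease that binds tissue factor, had 0 counts in each of the 4 KRM libraries from Sham kidneys. It was at 3.26, 3.53 and 2.27 CPM in CD11chiMϕ and at 6.39, 7.46 and 1.37 CPM in CD11cloMϕ. A count of 0 leaves up to 3 counts possible in a library, 0.285 CPM on average over the 4, so *F7* was at least 10.6-fold higher in CD11chiMϕ and at least 17.8-fold higher in CD11cloMϕ, which covers counting error only. The 2 CD11b-high populations overlapped in *F7*, with a log2 fold change between them of -0.69 (SE 0.65) and of -1.09 without the tubule-marked libraries.

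*F10*, the protease that factor VIIa activates, was at 28.6, 30.6 and 14.9 CPM in CD11chiMϕ, at 192, 112 and 66.4 CPM in CD11cloMϕ and at 1.72, 1.07, 1.08 and 1.25 CPM in KRM. The 3 populations did not overlap. The log2 fold change of KRM was -4.28 (SE 0.32) against CD11chiMϕ and -6.64 (SE 0.44) against CD11cloMϕ, and CD11chiMϕ were at -2.28 (SE 0.44) against CD11cloMϕ.

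The balance between the neighbours *F7* and *F10* differed between the CD11b-high populations. Of their summed counts, *F7* took 10.2% (95% Wilson interval 7.34 to 14.1%), 10.3% (7.38 to 14.3%) and 13.2% (8.61 to 19.7%) in the Sham libraries of CD11chiMϕ. In CD11cloMϕ it took 3.23% (2.52 to 4.11%), 6.27% (4.94 to 7.93%) and 2.02% (1.16 to 3.49%). The ranges did not overlap, and in RAS libraries they were 14.3 to 24.6% in CD11chiMϕ and 2.21 to 6.07% in CD11cloMϕ. KRM held too few counts of the pair, 10 to 20 per Sham library, for a share, as the upper interval bounds of 16.1 to 27.8% show.

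**Figure D2:**
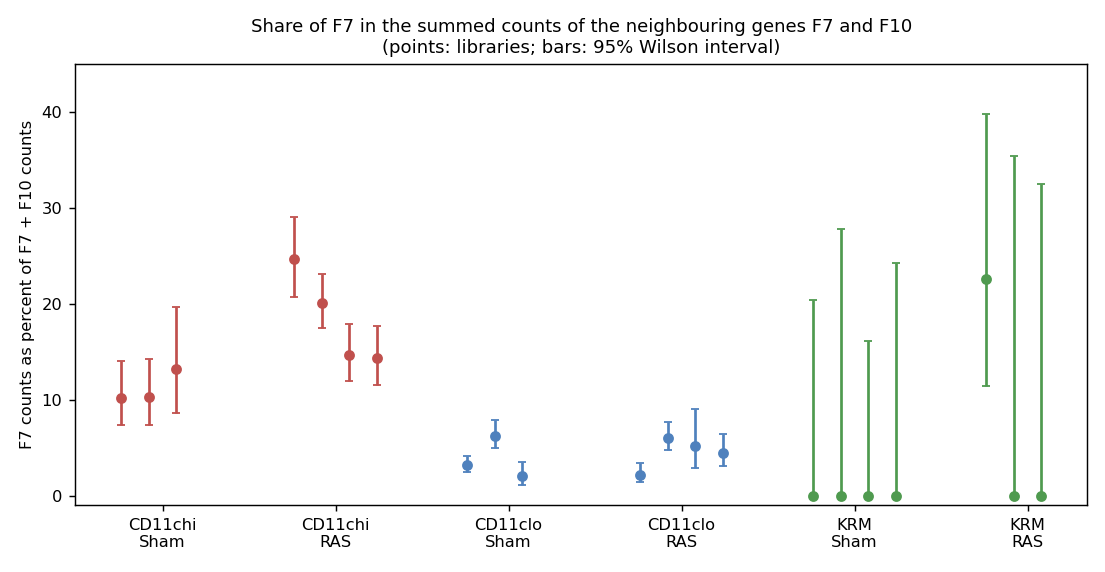
Counts of *F7* as a percent of the summed counts of *F7* and *F10* in each library, by population and operation, with 95% Wilson intervals that cover counting error only. CD11chiMϕ lie between 10.2 and 24.6%, above CD11cloMϕ at 2.02 to 6.27%, and the KRM intervals are wide.

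*F5*, the cofactor of factor X, had the widest gap between Sham populations among the 8 of these genes with counts in every population. It was at 398, 577 and 246 CPM in CD11cloMϕ, at 23.3, 39.7 and 28.3 CPM in CD11chiMϕ and at 0.458, 1.07, 2.26 and 0.209 CPM in KRM. No library of one population reached those of another. The log2 fold change of KRM was -8.51 (SE 0.60) against CD11cloMϕ and -4.90 (SE 0.68) against CD11chiMϕ, and that of CD11chiMϕ against CD11cloMϕ was -3.67 (SE 0.41).

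*F13a1*, the fibrin-crosslinking subunit, was the most abundant of the 9 in CD11cloMϕ from Sham kidneys, whereas *Thbs1* had the higher mean there after RAS. Its Sham libraries held 3935, 2957 and 1587 CPM in CD11cloMϕ, 296, 427 and 99.6 CPM in CD11chiMϕ and 22.9, 31.4, 24.1 and 28.7 CPM in KRM. The populations again did not overlap, with log2 fold changes of -6.76 (SE 0.36) for KRM against CD11cloMϕ, -3.35 (SE 0.40) for KRM against CD11chiMϕ and -3.36 (SE 0.61) for CD11chiMϕ against CD11cloMϕ. Markers of monocytes moved with this order in part: 7 of them summed to 2924 to 10391 CPM in CD11cloMϕ, 276 to 2114 CPM in CD11chiMϕ and 519 to 827 CPM in KRM from Sham kidneys. Neutrophil markers, 8 in all, summed to 1012 to 2543 CPM in CD11cloMϕ and to 44.6 to 255 CPM in the other Sham libraries. All 8 had counts in CD11cloMϕ from Sham kidneys, and 6 of them in each of the other Sham populations, where *Ly6g* and *Camp* were at 0. The part of these cells in the levels of *F5* and *F13a1* was not tested, and in sorted bulk samples fewer cells that express a gene and less RNA per cell cannot be told apart.

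*Thbd*, the thrombin receptor that starts the protein C pathway, was at 89.4, 71.6 and 60.2 CPM in CD11cloMϕ, 24.9, 31.3 and 18.7 CPM in CD11chiMϕ and 5.03, 5.47, 6.88 and 4.70 CPM in KRM from Sham kidneys. The order was that of *F10*, without overlap, and the log2 fold changes were smaller, at -3.76 (SE 0.21) and -2.20 (SE 0.22) for KRM against CD11cloMϕ and CD11chiMϕ and -1.51 (SE 0.23) between the 2 CD11b-high populations.

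The urokinase pair was opposed. *Plau* was at 8.12, 11.3, 8.61 and 10.2 CPM in KRM, at 7.03, 4.56 and 7.52 CPM in CD11chiMϕ and at 1.44, 0.467 and 3.53 CPM in CD11cloMϕ. Its receptor *Plaur* was at 6.52, 7.30, 5.06 and 4.80 CPM in KRM, at 132, 91.5 and 25.9 CPM in CD11chiMϕ and at 380, 309 and 483 CPM in CD11cloMϕ. KRM were thus highest in the protease and lowest in its receptor, and CD11cloMϕ the reverse. The log2 fold change of KRM against CD11cloMϕ was 2.39 (SE 0.57) for *Plau* and -6.06 (SE 0.22) for *Plaur*, and against CD11chiMϕ it was 0.51 (SE 0.31) and -3.81 (SE 0.48), with *Plau* at 0.81 without the tubule-marked libraries. Between CD11chiMϕ and CD11cloMϕ the values were 1.92 (SE 0.75) and -2.22 (SE 0.52).

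*Thbs1* was at 2247, 1091 and 943 CPM in CD11cloMϕ, at 64.0, 384 and 77.1 CPM in CD11chiMϕ and at 20.5, 19.96, 22.7 and 16.0 CPM in KRM from Sham kidneys. The log2 fold change of KRM was -6.20 (SE 0.37) against CD11cloMϕ and -3.12 (SE 0.59) against CD11chiMϕ, the latter -1.93 without CD11chiMϕ replicate 2. CD11chiMϕ were at -3.03 (SE 0.79) against CD11cloMϕ. Platelets store thrombospondin 1, factor V and factor XIII A, and 10 platelet markers summed to 151 to 198 CPM in CD11cloMϕ and to 45.6 to 98.7 CPM in the other Sham libraries. Of the 10 markers 7 had counts in CD11cloMϕ, 8 in CD11chiMϕ and 9 in KRM from Sham kidneys. *Gp6*, *Gp1bb* and *Tubb1* were at 0 in CD11cloMϕ, *Gp6* and *Treml1* in CD11chiMϕ, and *Tubb1* in KRM. The cells were gated on F4/80 and CD64, and the part of platelets in *Thbs1*, *F5* and *F13a1* was not tested.

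*F3*, which starts clotting, was low in most Sham libraries, at 0.612 and 1.25 CPM in CD11chiMϕ replicates 1 and 2, 0.515 and 0.933 CPM in CD11cloMϕ replicates 1 and 2, and 0.114, 0.536, 1.18 and 0.522 CPM in KRM. The third replicates of CD11chiMϕ and CD11cloMϕ, which also held the highest tubule marker sums of their groups, stood apart at 8.83 and 10.9 CPM. The part of tubule cells in *F3* was not tested. Against CD11chiMϕ the log2 fold change of KRM was -2.69 (SE 1.05) and -0.54 without CD11chiMϕ replicate 3. Against CD11cloMϕ *F3* was too low to pass the filter on counts.

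As a count over the list, 7 of the 9 genes were called lower and 0 higher in KRM than in CD11chiMϕ, where 4.13% of all 12380 genes tested were called lower and 1% higher. Against CD11cloMϕ 7 were called lower and 1 higher of the 8 tested, where 22.4% of 12365 genes were called lower and 19.5% higher. Between CD11chiMϕ and CD11cloMϕ 2 were called, both lower in CD11chiMϕ, where 0.603% of 12105 genes were called lower. The groups did not overlap for 8, 8 and 7 of the 9 genes in these comparisons, where 23.9%, 49.4% and 25.9% of all genes did not overlap. By direction, 11.9% of all genes lay wholly higher and 12% wholly lower in KRM than in CD11chiMϕ, 24.7% and 24.7% than in CD11cloMϕ, and 12.4% and 13.6% in CD11chiMϕ than in CD11cloMϕ. Because the genes were chosen on these libraries, nothing is read from these counts. The median log2 fold changes of the genes tested were -3.35, -6.42 and -2.22, beside -0.07, -0.04 and 0.13 over all genes. With the replicate number as a block these counts were 4, 8 and 4, and over all genes the calls went from 635 to 89, from 5185 to 4263 and from 184 to 595. With 1 library left out the counts were 5 to 7, 8 to 9 and 0 to 4, the last at 4 without CD11chiMϕ replicate 3 and at 0 without any other.

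The 50 other genes of the system, listed with earlier results of these data known, were tested with the same fit. In KRM against CD11chiMϕ from Sham kidneys 27 of the 50 passed the filter, and 6 fell and 0 rose (edgeR, adjusted p under 0.05), beside 5.13% of all genes called in either direction. At an unadjusted p under 0.05 there were 11, and DESeq2 called 1 higher and 7 lower. Of the 6 that fell, 4 belong to plasmin formation and its control, a list of 13 of which 9 were tested, with a median log2 fold change of -1.75. *S100a10* and *Anxa2*, the subunits of the surface complex that holds plasminogen next to its activator, fell from 93.9 to 221 and 147 to 653 CPM in CD11chiMϕ to 9.76 to 11.7 and 34.7 to 54.2 CPM in KRM, by log2 fold changes of -3.76 (SE 0.30, edgeR adjusted p = 0.00246) and -3.12 (SE 0.44, edgeR adjusted p = 0.0125). *Serpinb2*, an inhibitor of urokinase, was at 6.73, 56.5 and 34.8 CPM in CD11chiMϕ and had 4 counts in 1 KRM library and 0 in the other 3. Its pooled ratio of CD11chiMϕ to KRM was 366 (95% exact counting interval 142 to 1346, edgeR adjusted p = 0.00840). *F2rl2*, a protease-activated receptor, was at 1.79 to 6.73 CPM in CD11chiMϕ and 0.313 to 0.484 CPM in KRM, a difference of -3.43 on the log2 scale (SE 0.49, edgeR adjusted p = 0.0126). With the replicate block 3 of the 6 remained called, *Anxa2*, *S100a10* and *Serpinb2*, and the edgeR adjusted p of *F2rl2* was 0.119. With 1 library left out the number was 2 without KRM replicates 1, 2 or 4 and 3 without KRM replicate 3 or CD11chiMϕ replicate 1.

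Against CD11cloMϕ 28 of the 50 were tested, and 6 rose and 7 fell in KRM. Of all genes 41.9% were called, 19.5% higher and 22.4% lower. The count is near these shares, so nothing is read from it, and the called genes are given one by one. *F9*, whose factor activates factor X, was at 3.32 to 4.94 CPM in KRM and had 3 counts in 1 CD11cloMϕ library and 0 in the others, a pooled ratio of 39.2 (95% exact counting interval 13.2 to 192, edgeR adjusted p = 0.00243). *Tfpi*, the inhibitor of tissue factor with factor VIIa, was at 12.01 to 19.6 CPM in KRM and 2.37 to 6.06 CPM in CD11cloMϕ, a difference of 1.82 on the log2 scale (SE 0.35, edgeR adjusted p = 0.00387). *Procr*, the protein C receptor, was at 5.32 to 8.12 and 0.816 to 3.98 CPM, a difference of 1.51 on the log2 scale (SE 0.50, edgeR adjusted p = 0.0410). The call of *Procr* was kept by 8 of 16 alternatives, over which its adjusted p reached 0.187 in edgeR, and it was lost without any 1 library other than CD11cloMϕ replicate 3. *Cd36*, a receptor of thrombospondin 1, rose by 1.53 (SE 0.37, edgeR adjusted p = 0.0108). Of the 7 that fell, 5 were in the plasmin list. *S100a10* and *Anxa2* were at 228 to 392 and 830 to 1331 CPM in CD11cloMϕ, and their log2 fold changes in KRM were -4.95 (SE 0.23, edgeR adjusted p = 3.65e-06) and -4.61 (SE 0.26, edgeR adjusted p = 7.75e-06). *Serpinb2* was at 29.9 to 108 CPM in CD11cloMϕ, a pooled ratio to KRM of 827 (95% exact counting interval 323 to 3039, edgeR adjusted p = 4.38e-05). *Thbs3*, a thrombospondin, was at 1.86 to 3.76 CPM in CD11cloMϕ and 0.107 to 0.522 CPM in KRM, a difference of -2.90 on the log2 scale (SE 0.60, edgeR adjusted p = 0.00539). Between CD11chiMϕ and CD11cloMϕ 0 of 27 tested were called by edgeR without the block, with 6 at an unadjusted p under 0.05, beside 1.52% of all genes. With 1 fit over all groups edgeR called 2. With the replicate block it called 1, *F13b*, the B subunit of factor XIII, as higher in CD11chiMϕ. *F13b* ran from 1.22 to 96.9 CPM in CD11chiMϕ (mean 33.2, SD 55.2, 3 libraries). In CD11cloMϕ it ran from 0.309 to 26.9 CPM (mean 9.25, SD 15.3, 3 libraries). It was not among the genes called without the tubule-marked libraries. DESeq2 called 5, and 1213 of all 11584 genes, and edgeR without the tubule-marked libraries 8, and 1898 of all 12119 genes.

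**Figure D3:**
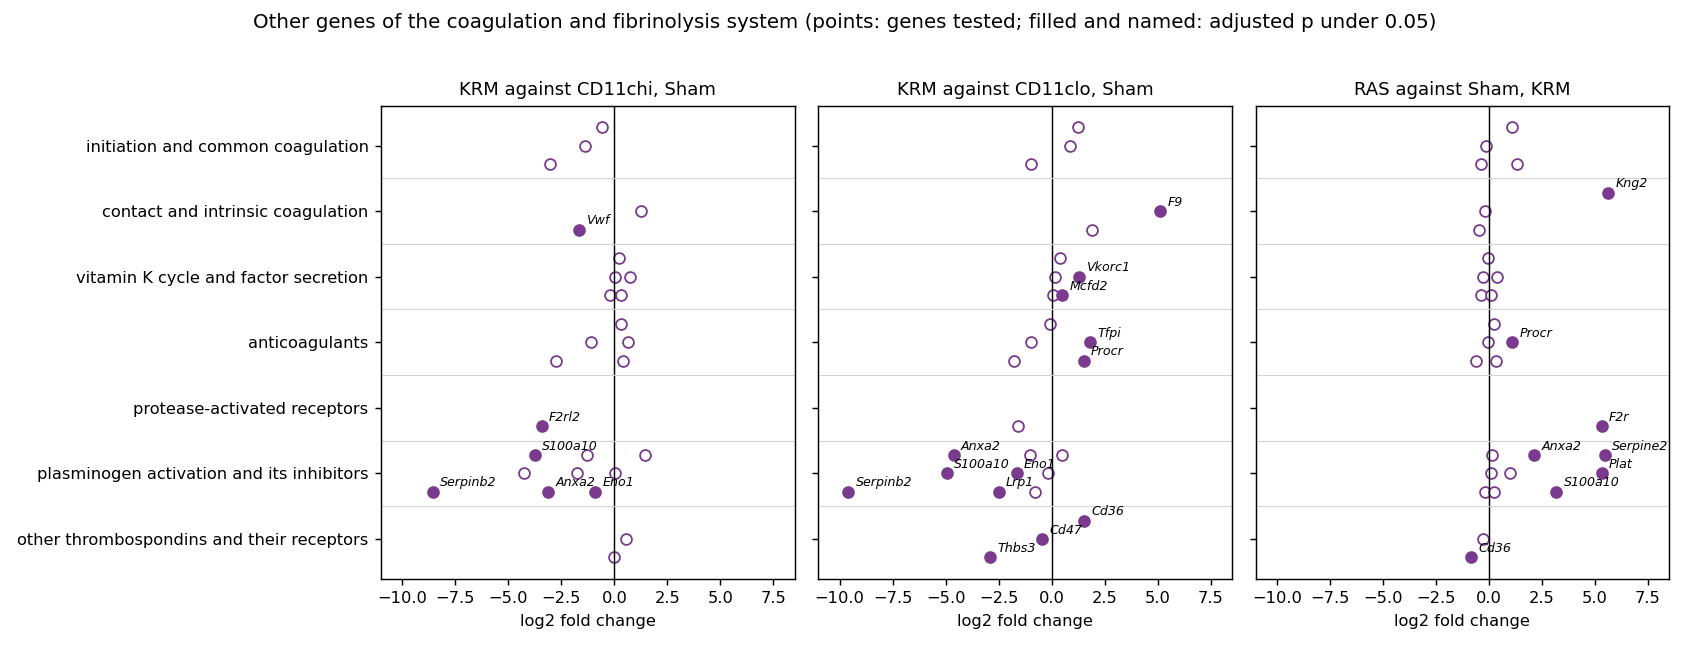
Log2 fold change of the tested genes among 50 other genes of clotting and fibrinolysis, by role, in 3 comparisons. Filled and named points passed an adjusted p of 0.05 in edgeR. In both Sham comparisons *Serpinb2*, *S100a10* and *Anxa2* lie to the left, lower in KRM, where the place of *Serpinb2* rests on 4 counts, and in KRM from RAS kidneys *S100a10* and *Anxa2* lie to the right.

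Some factors of plasma were at or near 0, and those named here were picked after their values were seen. *F11* had 0 counts in every library, *F12* had counts only in CD11cloMϕ, at up to 0.928 CPM, *Plg*, whose plasminogen is the substrate of urokinase, was at most 0.117 CPM, and *F2*, which codes prothrombin, was at most 0.569 CPM. The genes that process and export the vitamin K-dependent factors and factor V were present in all populations. In Sham libraries *Vkorc1* averaged 47.3 ± 7.27 CPM (SD) over the 4 of KRM against 19.3 ± 1.79 CPM (SD) over the 3 of CD11cloMϕ, and *Lman1* 77.2 ± 6.86 against 68.5 ± 10.6 CPM.

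RAS was compared with Sham within each population. In CD11chiMϕ *F7* and *F10* were higher in every RAS library than in every Sham library, and the other 7 genes overlapped. In CD11cloMϕ all 9 overlapped. In KRM *F3*, *Thbd*, *Plaur* and *F13a1* were higher in every RAS library than in every Sham library, and *Thbs1* was higher in 2 of the 3. The plot of RAS fold changes gives each estimate with its error and its range when 1 library is left out.

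**Figure D4:**
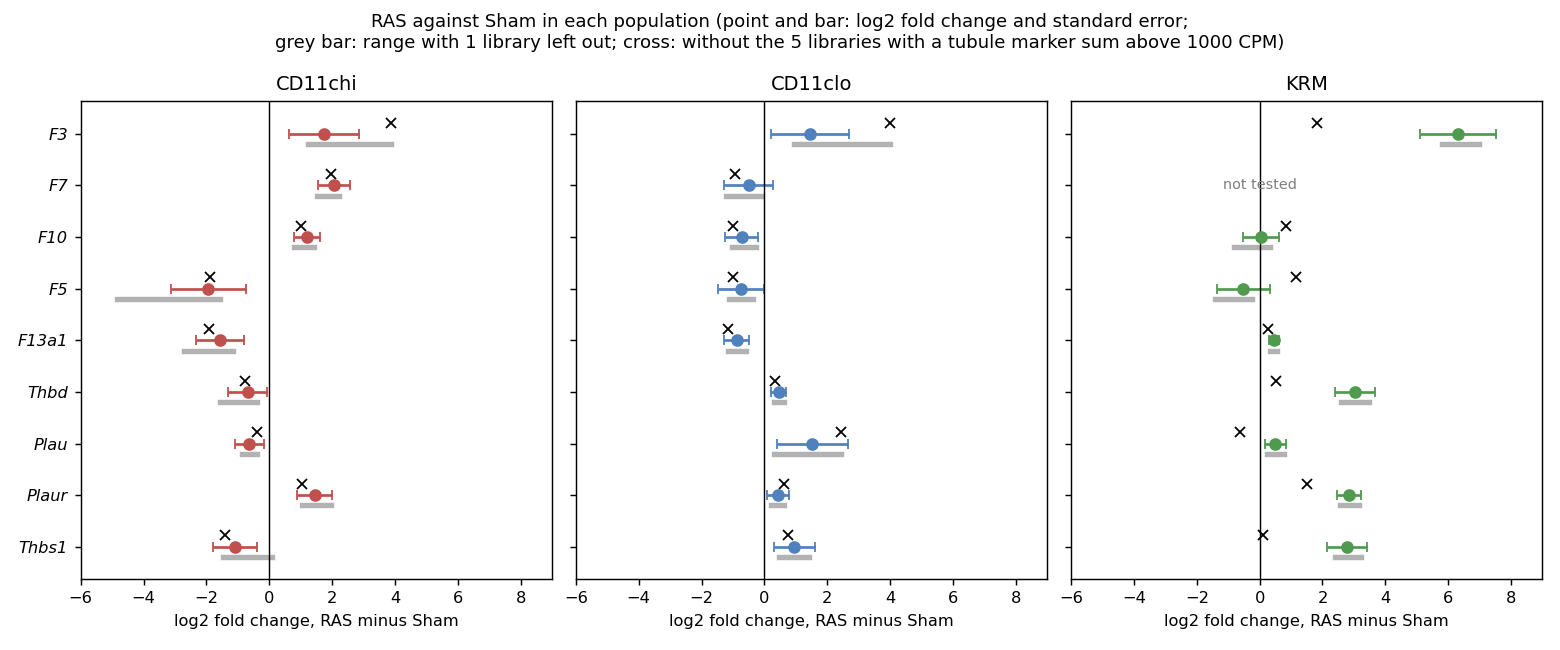
Log2 fold change of RAS against Sham for the 9 genes in each population. Points and bars are the estimate and its standard error, grey bars the range with 1 library left out, and crosses the estimate without the 5 tubule-marked libraries. *F3*, *Thbd*, *Plaur* and *Thbs1* lie between 2.78 and 6.31 in KRM, and their crosses between 0.11 and 1.81.

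In CD11chiMϕ *F7* was at 10.6, 22.6, 7.90 and 7.40 CPM after RAS, above the Sham libraries at 2.27 to 3.53 CPM, a difference of 2.06 on the log2 scale (SE 0.52). *F10* was at 32.3, 89.8, 45.9 and 44.2 CPM, above Sham at 14.9 to 30.6 CPM, a difference of 1.20 on the log2 scale (SE 0.43). *Plaur* was at 126, 180, 261 and 259 CPM, where Sham reached 132 CPM, a difference of 1.45 on the log2 scale (SE 0.55). The T and NK cell markers summed to 3.07 to 18.4 CPM in Sham and 43.3 to 214 CPM in RAS libraries, and the fibroblast and pericyte markers to 19.3 to 26.1 and 34.0 to 280 CPM, with the highest fibroblast sum in replicate 2, which was also highest in *F7* and *F10*. The dendritic cell markers, at 1037, 1559, 3654 and 3935 CPM after RAS and 1715, 1019 and 301 CPM in Sham, were higher in the libraries with more *Plaur*. The part of these cells was not tested. With 1 library left out, *F7* stayed at 1.52 or more, *F10* at 0.80 or more and *Plaur* at 1.05 or more.

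*F5*, *F13a1* and *Thbd* split the RAS libraries of CD11chiMϕ. *F5* was at 32.2 CPM in replicate 1, within Sham at 23.3 to 39.7 CPM, and at 1.31, 0.889 and 0.719 CPM in replicates 2 to 4, which is in the range of KRM. *F13a1* was at 269 CPM in replicate 1 and at 46.1, 30.8 and 34.9 CPM in the others, and *Thbd* at 41.3 CPM and at 4.21, 8.89 and 9.45 CPM. Replicate 1 was within the Sham range in *F5* and *F13a1* and above it in *Thbd*, and the other 3 libraries lay below every Sham library. The log2 fold changes were -1.94 (SE 1.19), -1.57 (SE 0.76) and -0.69 (SE 0.63), and without replicate 1 they were -4.84, -2.70 and -1.57. The same libraries differed in other ways given above: replicate 1 had the F4/80 gene within and the CD64 gene just above the Sham range, and replicates 2 to 4 had less of both than replicate 1 and more of the dendritic cell markers. The 7 monocyte markers summed to 1838 CPM in replicate 1 and 561 to 902 CPM in the others. The part of the cell mixture in *F5*, *F13a1* and *Thbd* was not tested.

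*Thbs1* was at 90.0, 20.3, 91.5 and 99.0 CPM in CD11chiMϕ after RAS and 64.0, 384 and 77.1 CPM in Sham, a difference of -1.10 on the log2 scale (SE 0.71) that was 0.08 without Sham replicate 2. *Plau* was at 5.39, 5.51, 3.26 and 2.36 CPM after RAS and 4.56 to 7.52 CPM in Sham, a difference of -0.63 on the log2 scale (SE 0.47) that was -0.39 without the tubule-marked library. Over all 12739 genes tested in CD11chiMϕ edgeR called 0, 1247 had an unadjusted p under 0.05, DESeq2 called 189, and edgeR called 39 without RAS replicate 1. Of all genes 6.6% did not overlap, 4.47% higher and 2.13% lower after RAS.

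In CD11cloMϕ the RAS and Sham libraries overlapped in all 9 genes. *F10* was at 85.2, 118, 20.2 and 65.7 CPM after RAS, *F5* at 416, 328, 25.1 and 180 CPM and *F13a1* at 1885, 1898, 690 and 1408 CPM, and replicate 3 was the lowest in each. Their log2 fold changes were -0.72 (SE 0.53), -0.75 (SE 0.72) and -0.89 (SE 0.39). *F10* was at -0.26 without Sham replicate 1, *F13a1* at -0.58 without Sham replicate 1 and *F5* at -0.37 without RAS replicate 3. The monocyte markers summed to 2924 to 10391 CPM in Sham and 1997 to 5660 CPM after RAS, lowest in replicate 3, and their part was not tested. *Thbs1* ran from 715 to 4825 CPM after RAS, *Plaur* from 284 to 726 CPM and *Thbd* from 59.7 to 125 CPM. The log2 fold change of *Thbs1* was 0.95 (SE 0.66), and 0.46 to 1.43 with 1 library left out. *Plau* was at 0.427, 2.31, 12.8 and 3.62 CPM, a difference of 1.52 on the log2 scale (SE 1.13) that was 0.29 without RAS replicate 3 and 2.45 without the tubule-marked library. *F7* was at 1.11 to 7.61 CPM, with a log2 fold change of -0.51 and of -0.95 without that library. With 1 library left out *F7* ran from -1.22 to -0.12. Over all 12301 genes tested in CD11cloMϕ edgeR called 0, 1102 had an unadjusted p under 0.05 and DESeq2 called 107. Of all genes 8.53% did not overlap, 3.46% higher and 5.06% lower after RAS.

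In KRM the RAS libraries split as well. *F3* was at 1.56, 88.3 and 71.8 CPM after RAS, above Sham at 0.114 to 1.18 CPM, a difference of 6.31 on the log2 scale (SE 1.22). *Plaur* was at 19.5, 59.2 and 54.0 CPM, above Sham, which reached 7.30 CPM, a difference of 2.84 on the log2 scale (SE 0.40). *Thbd* was at 8.03, 72.8 and 61.5 CPM and Sham at 4.70 to 6.88 CPM, a difference of 3.04 on the log2 scale (SE 0.64). *Thbs1* was at 22.5, 198 and 202 CPM and Sham at 16.0 to 22.7 CPM, a difference of 2.78 on the log2 scale (SE 0.64). Replicates 2 and 3 were high in all 4 genes, while replicate 1 was above Sham by far less in *F3*, *Thbd* and *Plaur* and within the Sham range in *Thbs1*.

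Replicates 2 and 3 were also the KRM libraries with tubule marker sums of 5369 and 4009 CPM, against 711 CPM in replicate 1, and with endothelial marker sums of 234 and 193 CPM, against 31.9 CPM. The 8 endothelial markers summed to 9.61 to 22.0 CPM and 6 fibroblast and pericyte markers to 20.3 to 41.2 CPM in KRM Sham, and the fibroblast sum was 411 and 495 CPM in these libraries and 47.2 CPM in replicate 1. Without the tubule-marked libraries 1 RAS library remains, which is assumed to vary like the Sham libraries, and the log2 fold changes were 1.81 for *F3*, 1.5 for *Plaur*, 0.52 for *Thbd* and 0.11 for *Thbs1*. The sums were made up of different tubule segments: the proximal marker *Slc34a1* reached 4920 CPM in CD11chiMϕ from Sham kidneys and was at or under 527 CPM in every KRM library from RAS kidneys, while *Umod*, of the thick ascending limb, reached 494 and 2252 CPM and *Aqp2*, of the collecting duct, 101 and 684 CPM. The T and NK cell markers summed to 1.72 to 2.61 CPM in KRM Sham and to 298, 27.5 and 26.8 CPM in the RAS libraries. Immediate early genes moved as well, with a sum of 12 such genes of 35860 to 50543 CPM in KRM Sham and 26687 to 31311 CPM in KRM RAS libraries. The cells were gated on CD45, a protein of leukocytes, and the libraries still held the marker RNA given above. The part of other cell types and of the immediate early response in these 4 genes was not tested. The plot of levels against tubule markers shows these libraries.

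**Figure D5:**
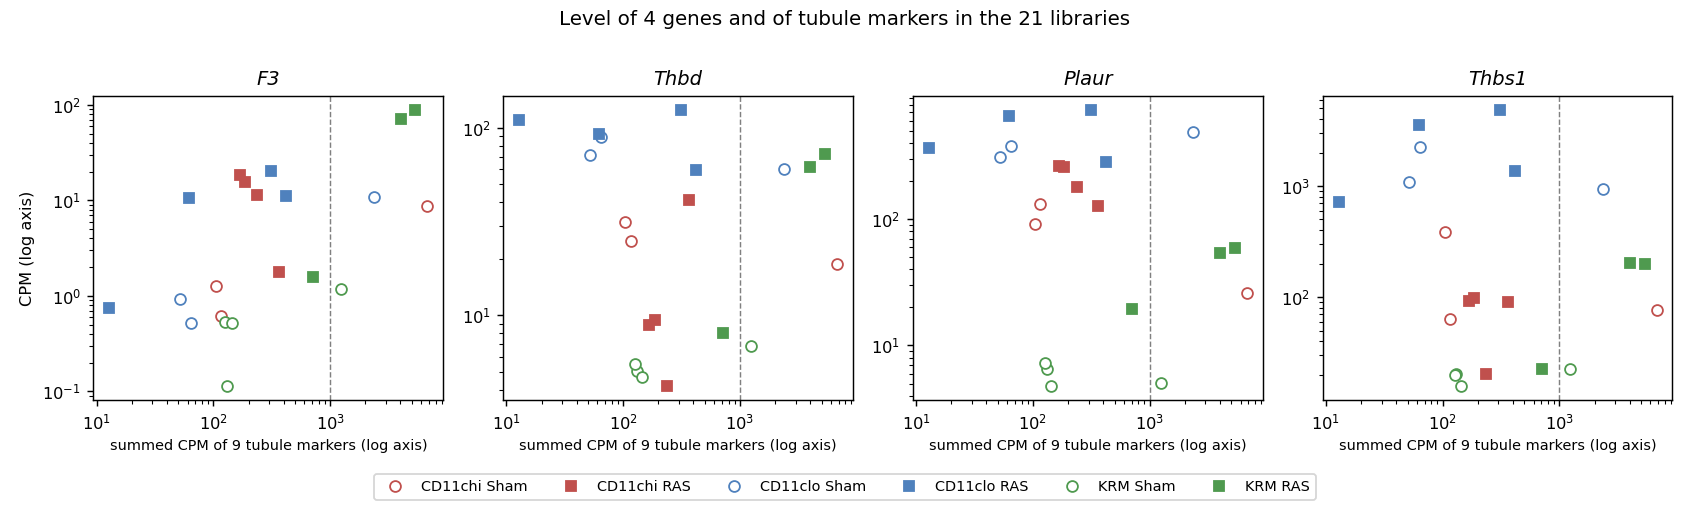
Level of *F3*, *Thbd*, *Plaur* and *Thbs1* in CPM against the summed CPM of 9 tubule markers in each of the 21 libraries (both axes log), with the limit of 1000 CPM dashed. The 2 KRM RAS libraries at 4009 and 5369 CPM of markers hold 71.8 and 88.3 CPM of *F3*, and the CD11chiMϕ Sham library with 6789 CPM of markers, made up mostly of another tubule segment, holds 8.83 CPM.

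Tissue factor split the RAS libraries by replicate number in all 3 populations. *F3* was at 1.80, 0.748 and 1.56 CPM in replicate 1 of CD11chiMϕ, CD11cloMϕ and KRM, and at 10.6 to 88.3 CPM in the other 8 RAS libraries. In CD11chiMϕ the others held 11.5, 18.4 and 15.7 CPM and in CD11cloMϕ 10.6, 11.1 and 20.5 CPM, with tubule marker sums of 62.1 to 420 CPM. The log2 fold changes were 1.74 (SE 1.12) in CD11chiMϕ and 1.46 (SE 1.24) in CD11cloMϕ, and 3.86 and 3.98 without Sham replicate 3 of each population. In replicate 1 after RAS the summed T and NK cell markers were also the highest of each population, at 214, 29.2 and 298 CPM, and the fibroblast and pericyte markers the lowest, at 34.0, 5.02 and 47.2 CPM.

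*F10* and *F5* were at 0.703 to 2.68 and 0.402 to 1.45 CPM in KRM after RAS and overlapped Sham. Their log2 fold changes were 0.05 (SE 0.57) and -0.52 (SE 0.85), and 0.83 and 1.16 without the tubule-marked libraries. With 1 library left out *F10* ran from -0.83 to 0.34 and *F5* from -1.43 to -0.23. *F7* had 7 counts in replicate 1 and 0 in replicates 2 and 3. *F13a1* was at 36.6, 36.5 and 42.7 CPM, above Sham at 22.9 to 31.4 CPM, a difference of 0.47 on the log2 scale (SE 0.16) that was 0.26 without the tubule-marked libraries. *Plau* was at 7.03, 16.8 and 18.4 CPM with an overlap and a log2 difference of 0.50 (SE 0.34), which was -0.63 without the tubule-marked libraries. Of the 8 genes tested 4 were called higher, *F3*, *Thbd*, *Plaur* and *Thbs1*, where 7.77% of 12852 genes were called higher and 1.94% lower, and nothing is read from this count. Without KRM RAS replicate 1 there were 6, without Sham replicate 3 there were 3, and without any other 1 library 0. The groups did not overlap for 4 of the 9, where 25.3% of all genes did not overlap, 17.1% higher and 8.23% lower after RAS.

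The other genes of the system were, like the 9, listed with earlier results of these data known. Of 29 tested, 7 rose and 1 fell after RAS (edgeR, adjusted p under 0.05), beside 9.7% of all genes called. Of the plasmin list 4 of 9 tested rose, with a median log2 fold change of 0.98 beside 0.02 over all genes. *Plat*, the tissue plasminogen activator, was at 0.669, 85.0 and 69.9 CPM and Sham at 0.644 to 2.09 CPM, a difference of 5.32 on the log2 scale (SE 1.23, edgeR adjusted p = 0.0402). *Serpine2*, an inhibitor of thrombin and plasminogen activators, was at 1.56, 52.9 and 46.8 CPM and Sham at 0.522 to 0.807 CPM, a difference of 5.47 on the log2 scale (SE 1.02, edgeR adjusted p = 0.0270). *F2r*, the thrombin receptor, was at 14.7, 52.2 and 58.0 CPM and Sham at 0.114 to 1.88 CPM, a difference of 5.34 on the log2 scale (SE 0.71, edgeR adjusted p = 0.0150). *Kng2*, a kininogen, was at 11.4, 254 and 199 CPM and Sham at 0.104 to 9.79 CPM, a difference of 5.65 on the log2 scale (SE 1.42, edgeR adjusted p = 0.0478). *Cd36* fell by 0.83 on the log2 scale (SE 0.21, edgeR adjusted p = 0.0480), a call that 7 of 18 alternatives kept. The high libraries of *Plat*, *Serpine2* and *Kng2* were again replicates 2 and 3.

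Without the tubule-marked libraries 1 RAS library is left against 3 Sham libraries and is assumed to vary like them, and it still held 711 CPM of tubule markers against 126 to 144 CPM. In that fit 5 of 29 were called, of which *F2r*, *Kng2* and *S100a10* were among the 8 called in all libraries. The log2 fold change was 3.72 for *F2r* and 5.08 for *Kng2*, but 1.02 for *Serpine2*, -0.44 for *Cd36* and, with its sign reversed, -1.17 for *Plat*. With 1 library left out the calls were 23 of 38 without KRM RAS replicate 1, where 7071 of all 14088 genes were called, 5 without Sham replicate 3, 1 without Sham replicates 2 or 4 or RAS replicates 2 or 3, and 0 without Sham replicate 1. In CD11chiMϕ and CD11cloMϕ 0 of 27 and 0 of 29 genes of the system were called by edgeR, with 7 and 3 at an unadjusted p under 0.05 and 3 and 1 called by DESeq2.

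Whether the response to RAS differed among the populations was tested over the 21 libraries. Of 14504 genes 15 were called (0.103%), and 1 of 38 among the other genes of the system. That gene, *S100a10*, was at 9.76 to 11.7 CPM in Sham and 54.0 to 154 CPM in RAS libraries of KRM, 93.9 to 221 and 163 to 444 CPM in CD11chiMϕ, and 228 to 392 and 94.4 to 311 CPM in CD11cloMϕ. Its response in KRM was larger than in CD11chiMϕ by 1.87 on the log2 scale and that in CD11cloMϕ smaller by 1.82 (edgeR interaction test, adjusted p = 0.0480). Without the tubule-marked libraries the difference between KRM and CD11chiMϕ was 1.11 and the adjusted p 0.571 in the same edgeR test, with the replicate number as a block it was 0.0754 and the call was lost, and 14 of 30 alternatives kept the call.

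The genes whose pattern was most like each of the 9 were sought among 8887 genes by Pearson's r of log2 CPM over the 21 libraries, which fall into 3 populations and share their depth and tubule markers. *F10* was closest to *Ifitm6* (r = 0.982), *S100a4* and *Cdkn2d*, and *F7* to *S100a4* (r = 0.936), *Siglecg* and *Tiam1*. *F13a1* was closest to *Gsr* (r = 0.978), *Alox5* and *Emilin2*, and *F5* to *Padi4* (r = 0.971), *Gsr* and *Alox15*. *Plaur* was closest to *Nfil3* (r = 0.980), *Adora2b* and *Nr4a1*, *Thbd* to *Megf9* (r = 0.929), *Spna2* and *Sgms2*, and *Thbs1* to *Atrnl1* (r = 0.939), *Map1lc3b* and *Osbpl9*. *F3* was closest to *Srxn1* (r = 0.917), *Clu* and *Cnn3*, and *Plau* to *Crim1* (r = 0.907), *Cdk18* and *Tuft1*. Immediate early genes, of which *Nr4a1* is one, respond to tissue digestion. The list of 12 such genes, which does not hold *Nr4a1*, summed to 13579 to 50543 CPM over the libraries. Among Sham libraries the sum was 35860 to 50543 CPM in KRM, where *Plaur* was lowest at 4.80 to 7.30 CPM. It was 15505 to 43536 CPM in CD11chiMϕ. In CD11cloMϕ, where *Plaur* was highest at 309 to 483 CPM, it was 22802 to 37866 CPM. The part of this response in *Plaur* was not tested.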

How the data were processed

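Macrophage RNA from sorted kidney cells was made into libraries with the SMART-Seq v4 Ultra Low Input and Nextera XT kits and read in pairs. The authors aligned reads to mm10 with the OSA aligner, assigned them to Ensembl genes and deposited estimated counts per gene, not scaled, with 1 column per library. They also deposited log2 values of quantile normalised TPM, and in that table KRM RAS replicate 1 does not match its own counts. The submitters' notes also name DESeq2. Here the counts were rounded, and lines of 1 symbol were summed, so 37620 lines gave 34236 symbols. Library totals were 6891142 to 18592381 counts, and 0 counts leave up to 3 possible. Reads carried no molecular identifiers, so intervals and this floor speak to counting error alone.

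Genes were filtered with filterByExpr (minimum count 10, minimum total 15), scaled by TMM and tested with the two-sided quasi-likelihood F test of edgeR 4.0.16 in R 4.3.3 on the libraries of the 2 groups compared, or on all 21 for the interaction. The 9 genes, the 7 pathway lists (50 genes), the 12 marker lists and the tests were chosen with earlier results of these data known. Named in the text are the 9 genes, of the other pathway genes the called ones (at most the 4 largest changes per direction and comparison), and for each of the 9 the 3 most alike among genes with a mean log2 CPM of at least 3. *Vwf*, *Eno1* and others called beyond these 4 are counted only, and *F11*, *F12*, *F2*, *Plg*, *Vkorc1*, *Lman1* and the genes of the sorted surface proteins were added after their values were seen. Of 146 list genes 3 were found under older symbols. Same-numbered Sham libraries of different populations deviated together from their group means (correlations 0.201 to 0.647). The correlations were highest, 0.542 to 0.647, for replicate 3, which is tubule-marked in each Sham group. The replicate number was therefore used as a block in an alternative, while the main fits took the libraries as unpaired. Promoters were found in RefSeq for 6 of the 9 genes. Alternatives were median-of-ratios size factors, total library size, no filter, 10 counts in every library, the first line of each symbol, 1 fit over all groups, DESeq2 1.42.0, the replicate block, limma 3.58.1 with the log2 table, each library left out and, after seeing the data, the 5 tubule-marked libraries left out.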

Additional observations from a re-analysis of the deposited data

Results flagged for a closer look

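In groups of 4 libraries, the library at one end was compared with the rest by Dixon's ratio, the gap to its neighbour divided by the range. This lists libraries to look at again and is no test of the genes, and chance alone lists about 1 in 20 groups. Of 26 gene and group pairs 4 were listed, all in CD11chiMϕ from RAS kidneys. *F5* was at 32.2 CPM in replicate 1 and 0.719 to 1.31 CPM in the others (ratio 0.981). *F13a1* was at 269 CPM in replicate 1 and 30.8 to 46.1 CPM in the others (ratio 0.936). *Thbd* was at 41.3 CPM in replicate 1 and 4.21 to 9.45 CPM in the others (ratio 0.859). *Thbs1* was at 20.3 CPM in replicate 2 and 90.0 to 99.0 CPM in the others (ratio 0.886). Replicate 2 also had the lowest *Itgam* of its group, at 225 CPM against 627 to 690 CPM.

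*S100a10*, the partner of annexin A2 in the plasminogen receptor, responded differently to RAS in the 3 populations (edgeR interaction test, adjusted p = 0.0480), a call lost with the replicate number as a block (edgeR adjusted p = 0.0754). Over 30 alternatives its adjusted p ranged from 7.41e-06 to 0.571 in the same test or in DESeq2 and limma, and 14 of them kept the call.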

How the results depend on the processing

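The number of genes called moved by more than 1.5 times as follows. In KRM against CD11chiMϕ (635) it was 395 with no filter, 89 with the replicate block, 1813 with DESeq2, 357 with limma and 1497 without the tubule-marked libraries. In KRM against CD11cloMϕ (5185) it was 3447 with 1 fit over all groups. In CD11chiMϕ against CD11cloMϕ (184) it was 113 with total library size, 95 with no filter, 818 with 1 fit over all groups, 595 with the replicate block, 1213 with DESeq2, 115 with limma and 1898 without the tubule-marked libraries. In RAS against Sham it was, for CD11chiMϕ (0), 5 with 1 fit over all groups, 189 with DESeq2 and 4 with limma, and for CD11cloMϕ (0) 107 with DESeq2. For KRM (1247) it was 752 with 10 counts in every library, 42 with the replicate block, 3167 with DESeq2, 2580 with limma, 7265 with limma without KRM RAS replicate 1 and 701 without the tubule-marked libraries. In the interaction (15) it was 25 with median-of-ratios factors, 56 with total library size, 29 with no filter, 5 with 10 counts in every library, 0 with the replicate block, 1088 with DESeq2, 451 with limma and 2 without the tubule-marked libraries. With 1 library left out the ranges, in the same order, were 155 to 1717, 4006 to 5940, 0 to 705, 0 to 39, 0 to 0, 26 to 7071 and 0 to 737. The cause of these moves was not tested.

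Between RAS and Sham, libraries of 1 number did not deviate together throughout (correlations -0.196 to 0.325), so they share only a number, and the replicate block left 1 of the 8 pathway genes called in KRM (*F2r*). Among the 9 genes, 824 fold changes under an alternative moved by less than 1 SD between libraries and 39 by more, and no called one changed sign. Among pathway genes 239 alternatives kept the call and direction, 72 kept the direction only, and *Plat* in KRM reversed to -1.17 without the tubule-marked libraries. Counts limit *F7* in KRM, *F9* in CD11cloMϕ and *Serpinb2* in KRM, where fitted fold changes rest on 0 to 4 counts in the lower group.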

Other observations

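*Procr* and *F2rl2*, neither of them called by edgeR in CD11chiMϕ, stood with *F7* and *F10* in that population. *Procr* was at 10.04, 28.6, 30.7 and 32.7 CPM after RAS and 2.04 to 7.28 CPM in Sham (log2 fold change 2.42, standard error 0.64), and *F2rl2* at 11.8, 13.4, 32.8 and 33.9 CPM and 1.79 to 6.73 CPM (2.44, standard error 0.64). Every RAS library lay above every Sham library for both genes, and the edgeR adjusted p was 0.508 for each, while DESeq2 called both. The dendritic cell markers summed to 1037, 1559, 3654 and 3935 CPM in the same RAS libraries, *Adgre1* was at 858 CPM in replicate 1 and 101 to 180 CPM in the others, and the part of these cells was not tested. They were picked out after their values were seen.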
